A study of Mus musculus with 38 samples.

Results

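The genes described here are Trp53, which encodes the transcription factor p53, and 7 genes whose products act back on p53. These are Mdm2, Mdm4, Ppm1d, Ccng1, Zmat3, Trp53inp1 and Rchy1. They were listed by name, with earlier results of these data known, and were found on the arrays through the RefSeq transcript identifier of each probe. All 8 genes were measured, by 10 probes, out of 20018 genes with a symbol on 55681 probes. Male MutaMouse, a strain that carries a lacZ transgene for mutation assays and was about 10 weeks old, received dibenz(a,h)anthracene (DBahA) in olive oil by oral gavage every day for 28 days. DBahA is a polycyclic aromatic hydrocarbon, a class of combustion products whose metabolites bind DNA. The dose groups were D1 at 6.25, D2 at 12.5 and D3 at 25 mg/kg-bw/day, and the D0 control mice were gavaged with olive oil alone. Lung and forestomach, the squamous upper part of the rodent stomach, were taken 72 h after the last dose. The lung arrays came from 5 D0, 5 D1, 4 D2 and 5 D3 mice, and the forestomach arrays from 5 D0, 5 D1, 4 D2 and 4 D3 mice. RNA came from a random section of each tissue, so all values are averages over the cells in that section. A higher or lower value from more or fewer cells of a type cannot be told apart from one due to RNA per cell.

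p53 is kept at a low level in undamaged cells because Mdm2, a ubiquitin ligase, binds it and marks it for degradation, while the related protein Mdm4 binds it and blocks its activity. After DNA damage, kinases such as Atm and Atr phosphorylate p53, the protein accumulates, and it switches on genes that include several of its own regulators. This makes loops in which the output of p53 limits or sustains p53 itself. Much of this control acts on the p53 protein, which the arrays did not measure.

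Each probe was read as a log2 ratio with the tissue RNA (Cy5) above the line and a reference RNA pooled from mouse cell lines (Cy3), present on every array, beneath it. It is a ratio to the reference, so values of different genes are not compared as levels. A difference of 1 on this scale is a doubling, written as a fold of 2. To be called, a probe needed a change of 1.5-fold or more and a limma p of 0.05 or less after Benjamini-Hochberg adjustment over all 55681 probes. In lung the main probe of each of the 8 genes, the brightest of its probes, was well above background in Cy5 on 19 of 19 arrays. In forestomach this held for 6 of the 8 genes, with Trp53 above background on 16 and Mdm4 on 17 of 19 arrays. The defining markers of each labelled tissue were present. Of 8 lung markers, 8 were above background on every lung array, and of 10 markers of squamous epithelium, 9 or 10 were above background on every forestomach array. Most forestomach arrays also carried glandular stomach RNA. On 13 of the 19 arrays 9 of 9 glandular stomach markers were above background, with a mean log2 ratio of 4.83 to 6.90, against 0.37 to 0.94 on the other 6. The score of 9 glandular stomach markers, averaged and set to 0 at the D0 mean, was -3.66 to -3.09 on 6 forestomach arrays, those of mice 2, 5, 8, 9 and 15 plus mouse 18's first array. The remaining 13 arrays scored 0.80 to 2.87. The second array labelled mouse 18 lay on the slide of lung mouse 20, and no forestomach array is labelled mouse 20, so whether both arrays came from 1 animal is uncertain.

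Several members carry sequence in their promoter that resembles the element p53 binds, which is a pair of short palindromic sites of the p53 half-site consensus. The 250 bases before the transcript start were searched for a single match, read alike on both strands, in the RefSeq promoters of mouse build GRCm38.p6. Promoters were found for 6 of the 8 genes, without Zmat3 and Trp53inp1. A match lay in the promoter of 5 of these 6 (Trp53, Mdm2, Ppm1d, Ccng1 and Rchy1), and in 8.20% of the 27025 genes in the table. A gene counted if any of its promoters held a match. Rchy1 also had an upstream promoter, and that promoter held no match. No member promoter held a pair of matches within 13 bases of each other, and 0.0666% of all genes did. A match of these letters is a description and not evidence of binding, and functional sites often lie outside such a window. The promoters of Ccng1, Mdm2 and Ppm1d are shown because the values of these genes were higher in every D1 and D3 lung than in every control lung, with the matches in capitals.
Ccng1, chr11:40755287-40755536, minus strand: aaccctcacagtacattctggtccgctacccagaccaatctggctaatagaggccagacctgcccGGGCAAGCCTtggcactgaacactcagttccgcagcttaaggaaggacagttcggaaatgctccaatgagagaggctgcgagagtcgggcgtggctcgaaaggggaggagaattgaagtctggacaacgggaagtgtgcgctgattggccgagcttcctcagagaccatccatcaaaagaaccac
Mdm2, chr10:117710759-117711008, minus strand: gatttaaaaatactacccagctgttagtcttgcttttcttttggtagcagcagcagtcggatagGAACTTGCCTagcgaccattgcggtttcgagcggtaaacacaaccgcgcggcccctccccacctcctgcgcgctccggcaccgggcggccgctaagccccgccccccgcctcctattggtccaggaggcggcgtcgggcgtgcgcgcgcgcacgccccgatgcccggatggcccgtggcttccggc
Ppm1d, chr11:85311004-85311253, plus strand: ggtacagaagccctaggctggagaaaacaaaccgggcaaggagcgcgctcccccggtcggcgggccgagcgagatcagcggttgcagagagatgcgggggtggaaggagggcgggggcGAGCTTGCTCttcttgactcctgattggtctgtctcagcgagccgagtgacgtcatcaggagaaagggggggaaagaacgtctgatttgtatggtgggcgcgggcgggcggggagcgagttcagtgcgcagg
The match in Ccng1 began 185 bases, that in Mdm2 186 bases and that in Ppm1d 132 bases before the transcript start.

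In lung, DBahA raised the RNA of 4 of the 8 genes. Ccng1, Zmat3 and Trp53inp1 were called higher at all 3 doses, and Mdm2 at D2 and D3. Trp53 itself, Mdm4, Ppm1d and Rchy1 were not called at any dose. The counts were 3 of 8 genes at D1, 4 at D2 and 4 at D3, all higher, where 0.14%, 0.264% and 0.639% of all probes were called. All probes include dim ones, while each member was counted by its brightest probe. Of the 24682 probes above background on all lung arrays of at least 1 dose group, 85, 164 and 384 were called. The 8 genes had median log2 fold changes of 0.37 (D1), 0.51 (D2) and 0.55 (D3), and the median of all probes was 0 for each dose. Values of every treated mouse exceeded those of every control mouse for 5 members at D1, 4 at D2 and 5 at D3, against 0.912%, 1.58% and 2.05% of all probes. Those shares, too, include dim probes.

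**Figure D1:**
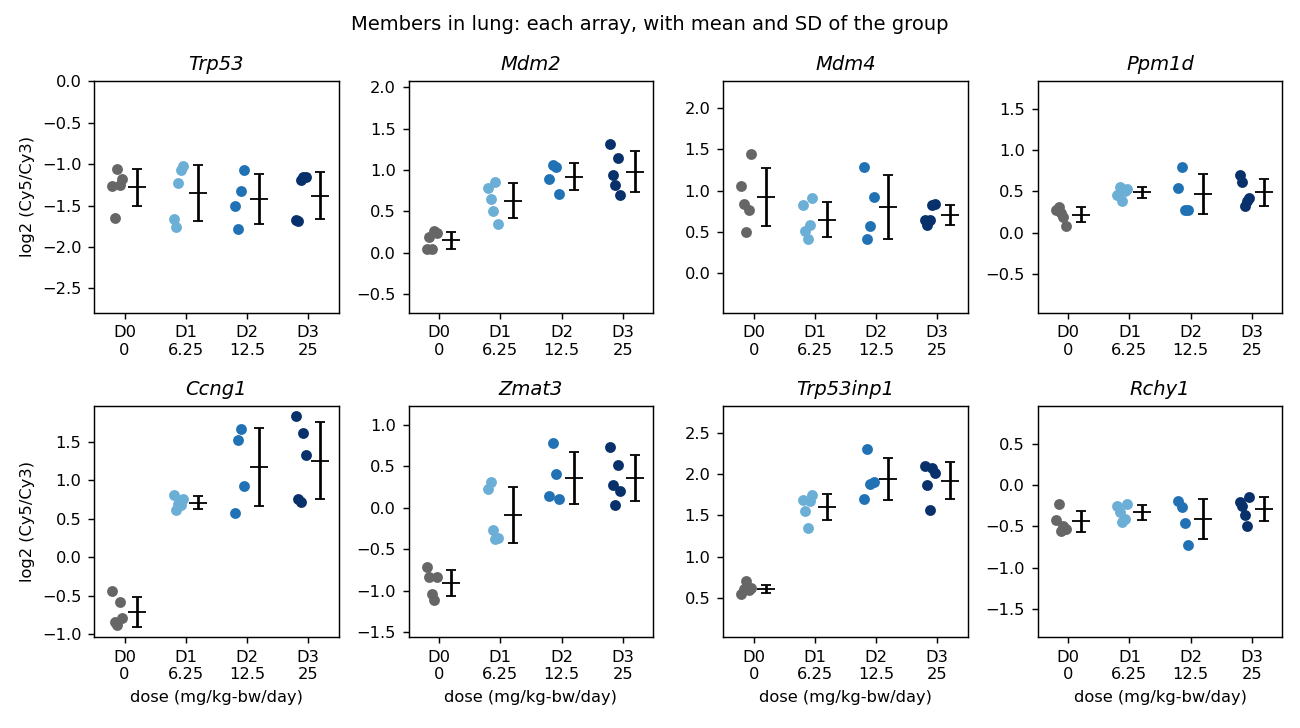
Log2 (Cy5/Cy3) of the 8 genes in lung (y axis, each panel with its own range) by dose group (x axis, mg/kg-bw/day); each point is 1 mouse, and the bars beside the points are the group mean and SD. The treated mice lie above all D0 mice for Mdm2, Ccng1, Zmat3 and Trp53inp1, while the groups overlap for Trp53, Mdm4 and Rchy1.

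Ccng1 encodes cyclin G1, which recruits a phosphatase to Mdm2 and so favours the breakdown of p53. Its log2 ratio in lung was -0.44, -0.84, -0.88, -0.58 and -0.79 in the 5 control mice. At D1 it was 0.81, 0.62, 0.69, 0.68 and 0.76, at D2 0.58, 1.52, 1.66 and 0.92, and at D3 1.83, 0.75, 0.72, 1.61 and 1.33. No treated mouse came near the control range, and the spread among treated mice was wider at D2 (SD 0.51) and D3 (SD 0.50) than at D1 (SD 0.08). The log2 fold change was 1.42 ± 0.20 (SE, 2.67-fold, limma adjusted p = 0.0016) at D1. It was 1.88 ± 0.21 (3.67-fold, adjusted p = 6.28e-05) at D2 and 1.95 ± 0.20 (3.87-fold, adjusted p = 1.03e-05) at D3. These were the largest changes among the 8 genes at every dose.

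Trp53inp1 encodes a stress-induced protein that associates with kinases which phosphorylate p53, so it sits in a loop that sustains p53. Its main probe gave 0.55, 0.61, 0.70, 0.60 and 0.62 in control lungs, the narrowest control range of the 8 genes. At D1 the values were 1.68, 1.55, 1.35, 1.67 and 1.75, at D2 1.70, 2.30, 1.88 and 1.90, and at D3 2.09, 1.87, 1.56, 2.07 and 2.01. All treated mice were above all controls. D1 exceeded D0 by 0.99 ± 0.11 on the log2 scale (SE, 1.98-fold, limma adjusted p = 7.66e-05), D2 by 1.33 ± 0.12 (2.51-fold, adjusted p = 2.69e-06) and D3 by 1.31 ± 0.11 (2.47-fold, adjusted p = 7.61e-07). A second, dimmer probe of Trp53inp1 moved the same way but less, by 0.56, 0.77 and 0.77, and at D1 its 1.47-fold change missed the fold threshold with an adjusted p of 0.0291.

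Zmat3 encodes a zinc finger protein that binds RNA, including the RNA of Trp53. In control lungs it was at -0.71, -0.84, -1.04, -1.11 and -0.84. At D1 it was at 0.23, 0.31, -0.27, -0.38 and -0.36, at D2 at 0.14, 0.78, 0.41 and 0.11, and at D3 at 0.74, 0.27, 0.04, 0.52 and 0.20. Controls and treated mice were again apart, and at D1 the mice fell into 2 above 0 and 3 below it. Zmat3 rose on the log2 scale by 0.81 ± 0.16 in D1 mice (SE, 1.76-fold, limma adjusted p = 0.0291), by 1.27 ± 0.17 in D2 mice (2.41-fold, adjusted p = 0.000452) and by 1.26 ± 0.16 in D3 mice (2.40-fold, adjusted p = 0.000157). The call at D1 was lost when any of 6 mice was left out. The adjusted p was then 0.123 without mouse 6 and 0.121 without mouse 7 of D1, and 0.0657, 0.083, 0.113 and 0.0716 without mice 2, 3, 4 and 5 of D0.

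Mdm2, the ligase that degrades p53 and is itself induced by it, was at 0.04, 0.19, 0.05, 0.26 and 0.24 in control lungs. It was at 0.78, 0.65, 0.50, 0.86 and 0.35 at D1, at 0.89, 1.06, 1.03 and 0.71 at D2, and at 1.31, 0.94, 0.82, 1.14 and 0.70 at D3. Every treated mouse exceeded every control, the nearest being the D1 mouse at 0.35. At D1 the log2 fold change of 0.48 ± 0.11 (SE, 1.39-fold) was not called (limma adjusted p = 0.137). It was 0.77 ± 0.12 (1.70-fold, adjusted p = 0.00236) at D2 and 0.83 ± 0.11 (1.77-fold, adjusted p = 0.000383) at D3.

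Ppm1d encodes a phosphatase that removes phosphate groups from p53 and from the kinases that activate it, and is itself a p53 target. Its values in lung were 0.27, 0.31, 0.24, 0.19 and 0.08 in controls and 0.70, 0.61, 0.32, 0.39 and 0.42 at D3. The D1 mice lay between 0.39 and 0.55, and the D2 mice between 0.28 and 0.79, where the range met that of the controls. Log2 fold changes against D0 were 0.27 (95% interval 0.07 to 0.47) for D1, 0.25 (0.05 to 0.46) for D2 and 0.27 (0.07 to 0.47) for D3. These intervals lay above 0 and below the fold threshold of 0.585 on the log2 scale. None was called, with limma adjusted p values of 0.575, 0.483 and 0.215.

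Trp53 itself gave no call in lung. Its log2 ratio was -1.26, -1.65, -1.06, -1.25 and -1.18 in control mice and -1.67, -1.69, -1.19, -1.16 and -1.16 at D3, and the groups overlapped fully. Against D0, the log2 fold change of D1 was -0.07 (95% interval -0.41 to 0.27), that of D2 -0.14 (-0.50 to 0.22) and that of D3 -0.10 (-0.44 to 0.24). Limma adjusted p values were 0.975, 0.898 and 0.891. Most of the spread went with the slide, the glass carrier that holds 8 arrays of both tissues. On slides 1 and 2, scanned together, the 7 lung arrays lay between -1.78 and -1.5, and the 12 arrays of slides 3 to 5 lay between -1.33 and -1.02. Slides accounted for 0.91 of the variance of Trp53 within dose groups in lung and for 0.96 in forestomach, compared with 0.04 and 0.22 for Ccng1. With 5 slides over 19 arrays some share arises by chance alone. With slide as a block Trp53 changed in lung by 0.02 ± 0.08 (log2, SE) in D1, by 0.00 ± 0.09 in D2 and by 0.00 ± 0.08 in D3 mice, and none was called. The only probe of Trp53 was the dimmest of the main probes in lung, with a mean log2 Cy5 of 7.03. Its signal over background limits how small a change of Trp53 RNA could be seen, and the SE does not cover this.

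**Figure D2:**
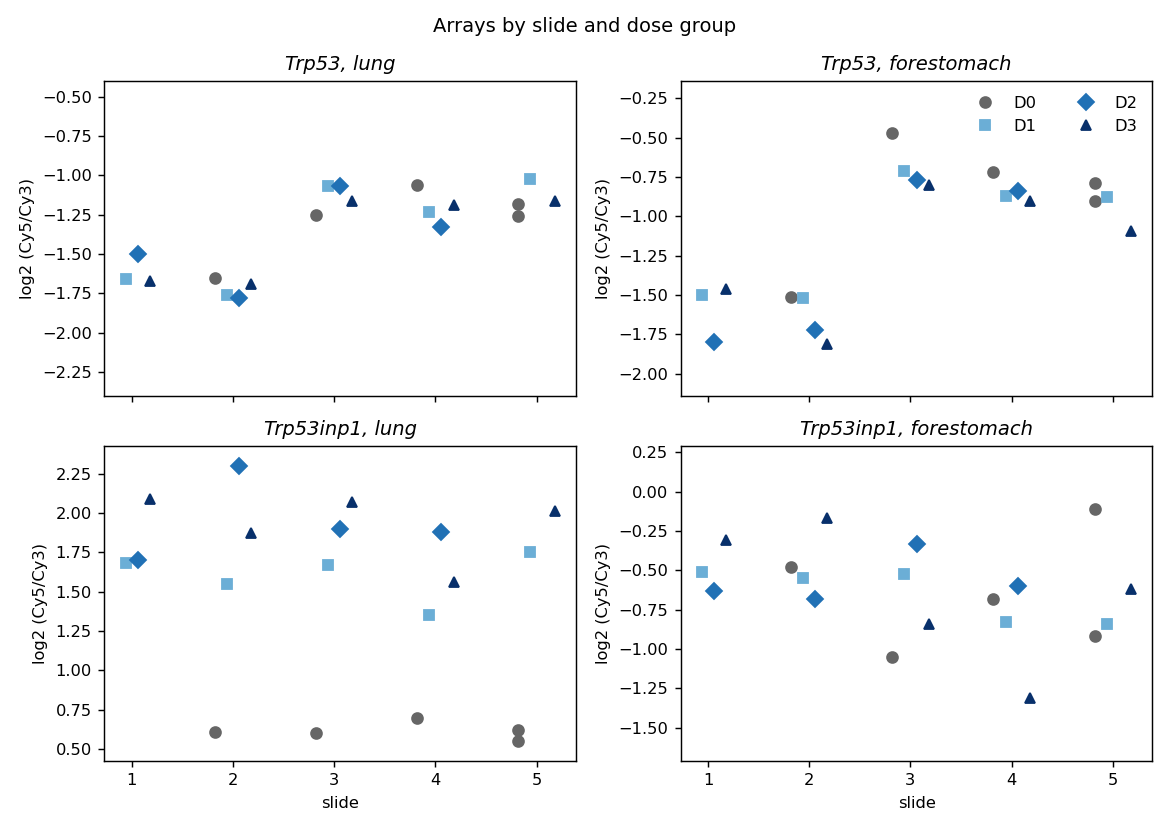
Log2 (Cy5/Cy3) of the main probes of Trp53 (top) and Trp53inp1 (bottom) in lung and forestomach (y axis) for each array by slide (x axis), with dose groups as symbols. Trp53 is lower on slides 1 and 2 in both tissues at every dose, while in lung Trp53inp1 is higher in treated than in control mice on each slide that holds both.

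Mdm4, the relative of Mdm2 that blocks p53, was read by 2 probes and was called by neither. The brighter probe lay between 0.50 and 1.44 in control lungs and between 0.42 and 1.29 over all treated lungs. It gave log2 fold changes of -0.27 (95% interval -0.60 to 0.06) for D1, -0.12 (-0.48 to 0.23) for D2 and -0.21 (-0.54 to 0.12) for D3. The dimmer probe, above background on 14 of 19 lung arrays, gave -0.14, 0.11 and -0.10. Rchy1, which encodes another ubiquitin ligase of p53, lay between -0.56 and -0.23 in control lungs. It differed from controls by 0.11 in D1, 0.03 in D2 and 0.15 in D3 mice on the log2 scale (limma adjusted p = 0.897, 0.972 and 0.611), and its upper 95% limit for D3 was 0.36, below the fold threshold of 0.585.

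Within slides that held both control and treated lungs, the differences were positive on every slide at all 3 doses for Ccng1 (1.26 to 2.54), Trp53inp1 (0.66 to 1.69), Zmat3 (0.41 to 1.63), Mdm2 (0.21 to 0.98) and Ppm1d (0.04 to 0.48). For Trp53 they ran from -0.27 to 0.20, for Mdm4 from -0.42 to 0.15 and for Rchy1 from -0.24 to 0.33. Markers of proliferating cells moved with treatment too. A score averaged from 6 such markers, with the D0 mean as 0, was -0.21 to 0.19 in the 5 control lungs and 0.31 to 1.01 in the 14 treated lungs, and 2, 4 and 4 of the 6 were called higher at D1, D2 and D3. With this score as a covariate, chosen after its values were seen, 0, 1 and 1 members were called at the 3 doses. Of all 55681 probes 78, 147 and 356 were called without the score, and 8, 19 and 89 with it. The median SE over all probes was 0.16, 0.17 and 0.16 with the score, in place of 0.10. The log2 fold change at D3 was then 1.47 ± 0.32 (SE) for Ccng1, 1.14 ± 0.27 for Zmat3, 0.84 ± 0.20 for Mdm2 and 1.14 ± 0.18 for Trp53inp1, the last still called (limma adjusted p = 0.0112). The score did not overlap between controls and treated mice, and its part in the result was not tested.

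A comparison of D3 with D1 asked whether the lung response grew with dose. Limma called 0 of the 8 genes, as it called 0% of all probes, where 2448 probes had an unadjusted p under 0.05. Among the members, 4 had an unadjusted p under 0.05, and all were higher at D3. The log2 difference was 0.54 (95% interval 0.11 to 0.96) for Ccng1, 0.45 (0.12 to 0.78) for Zmat3, 0.35 (0.11 to 0.59) for Mdm2 and 0.32 (0.09 to 0.55) for Trp53inp1. In each case the D1 and D3 ranges overlapped. Their adjusted p values lay between 0.998 and 1. For Ppm1d the difference was 0.00 (-0.19 to 0.20). D2 and D3 shared the same controls, and the fold changes at these doses were 1.88 and 1.95 for Ccng1, 1.27 and 1.26 for Zmat3, 0.77 and 0.83 for Mdm2 and 1.33 and 1.31 for Trp53inp1 on the log2 scale.

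In forestomach, none of the 8 genes was called at any dose. By limma 0% of all probes were called for D1, 0% for D2 and 0% for D3. The probes with an unadjusted p under 0.05 numbered 2402, 1737 and 1986. None of the 8 genes reached an unadjusted p under 0.05 against D0. Median log2 fold changes of the members were -0.01 (D1), 0.06 (D2) and 0.10 (D3). The comparison of D3 with D1 called 0 members and 0% of all probes (2979 at an unadjusted p under 0.05), and 1 member, Mdm2, had an unadjusted p of 0.0492 with a log2 difference of 0.23.

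**Figure D3:**
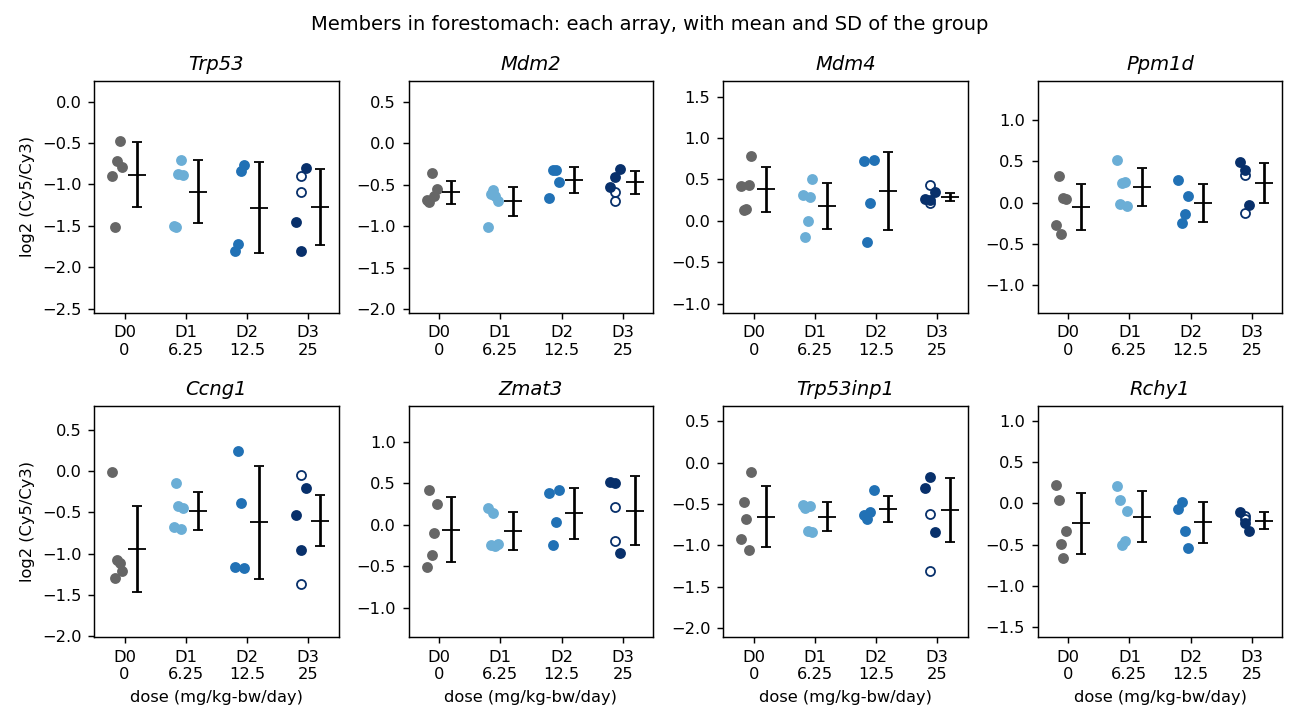
Log2 (Cy5/Cy3) of the 8 genes in forestomach (y axis, each panel with its own range) by dose group (x axis, mg/kg-bw/day); each point is 1 array, open points are the 2 arrays of mouse 18, and bars are the group mean and SD with those 2 arrays averaged. The dose groups overlap for every gene, and 1 control mouse stands at -0.01 for Ccng1.

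The main probe of Trp53inp1 read -0.92, -0.48, -0.68, -1.05 and -0.11 in control forestomachs. It read -0.51, -0.55, -0.83, -0.52 and -0.84 in D1 mice, -0.63, -0.68, -0.60 and -0.33 in D2 mice, and in D3 mice -0.31, -0.17 and -0.84 with -1.31 and -0.62 on the arrays of mouse 18. Nearly all treated mice lay inside the control range, the exception being that first array of mouse 18. Its log2 fold changes were 0.00 for D1 (95% interval -0.37 to 0.37), 0.09 for D2 (-0.30 to 0.48) and 0.08 for D3 (-0.31 to 0.47), and these upper limits stayed below the lung estimates. Mdm2 was at -0.68, -0.71, -0.36, -0.64 and -0.55 in controls. It was at -1.01, -0.61, -0.56, -0.63 and -0.69 in D1 mice, at -0.66, -0.32, -0.32 and -0.46 in D2 mice, and in D3 mice at -0.53, -0.40 and -0.31 with -0.59 and -0.69 for mouse 18. The groups overlapped, with the lowest value in a D1 mouse and the highest in a D3 mouse. Its log2 fold changes were -0.11 (-0.33 to 0.10), 0.15 (-0.08 to 0.38) and 0.12 (-0.11 to 0.34). The upper limit at D3 was below the lung estimate of 0.83.

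Ccng1 varied most between forestomach arrays. Controls read -0.01, -1.29, -1.08, -1.11 and -1.21, and D1 mice -0.68, -0.14, -0.42, -0.70 and -0.45. D2 mice read -1.16, 0.24, -0.39 and -1.17, and D3 mice -0.53, -0.96 and -0.21 besides mouse 18. Of the controls, 4 were below all D1 mice and mouse 1 was above them. Treated mice differed from controls on the log2 scale by 0.46 in D1 (95% interval -0.11 to 1.04), 0.32 in D2 (-0.28 to 0.93) and 0.34 in D3 (-0.26 to 0.95). Without control mouse 1, which stood at -0.01, the log2 fold changes were 0.70 ± 0.24 (SE), 0.55 ± 0.25 and 0.57 ± 0.25, and the limma adjusted p values were 1, 0.991 and 0.985. The 2 arrays of mouse 18 differed most for this gene as well, at -1.37 and -0.05, and their glandular stomach scores were -3.09 and 2.49. With only the first of these arrays the D3 change of Ccng1 was 0.18, and with only the second it was 0.51. With the glandular stomach score as a covariate it was 0.24 ± 0.25. The part of glandular tissue in these values was not tested.

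The other members in forestomach had wide intervals. Zmat3 lay between -0.51 and 0.42 in controls, and its log2 fold changes were -0.02, 0.21 and 0.23. Ppm1d changed by 0.24, 0.04 and 0.29, with an interval at D3 from -0.05 to 0.62. For Trp53 the changes were -0.21, -0.40 and -0.39, with a D3 interval from -0.97 to 0.19, and all 7 arrays of slides 1 and 2 (-1.81 to -1.46) were below all 12 of slides 3 to 5 (-1.09 to -0.47). D0 was on slides 2 to 5 only, as in lung. Within slides the forestomach differences of Trp53 were at or below 0 throughout, from -0.24 to 0.00 for D1 on 4 slides, from -0.30 to -0.13 for D2 on 3 and from -0.33 to -0.19 for D3 on 4. With slide as a block they were -0.10 ± 0.08 (SE), -0.25 ± 0.09 and -0.23 ± 0.09, none called (limma adjusted p = 1, 0.914 and 0.617). Mdm4 changed by -0.20, -0.02 and -0.08 and Rchy1 by 0.08, 0.01 and 0.04, all on the log2 scale.

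**Figure D4:**
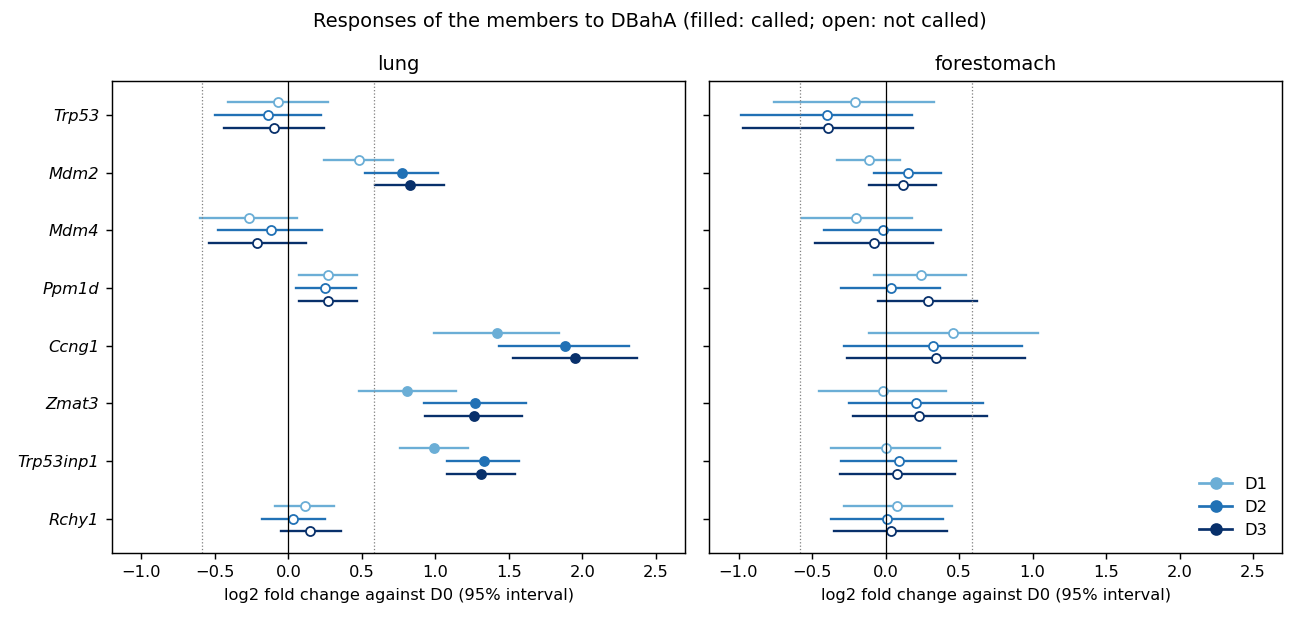
Log2 fold change of each gene against D0 (x axis) with its 95% interval, in lung (left) and forestomach (right), for D1, D2 and D3; filled points were called, open points were not, and dotted lines mark a 1.5-fold change. In lung the intervals of Ccng1, Zmat3, Trp53inp1, Mdm2 and the uncalled Ppm1d lie to the right of 0 at every dose, and in forestomach every interval crosses 0.

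The difference between the tissues was tested as the lung response minus the forestomach response, in 1 fit over all mice. Trp53inp1 was the member called, at D2 and D3. Its response was larger in lung by 0.99 ± 0.21 for D1 (log2, SE, limma adjusted p = 0.0833), 1.24 ± 0.22 for D2 (adjusted p = 0.0106) and 1.23 ± 0.22 for D3 (adjusted p = 0.00482). The second probe of Trp53inp1 was also called, with differences of 0.83 at D2 and 0.69 at D3 (adjusted p = 0.0182 and 0.0419). Members called numbered 0 at D1, 1 at D2 and 1 at D3, against 0.0323%, 0.0611% and 0.172% of all probes. Of the 25571 probes kept by a filter on dim probes, 21, 49 and 121 were called. Proliferating cell markers moved the same way. Of the 6, 1, 1 and 4 were called with a larger response in lung for D1, D2 and D3, with median differences of 0.83, 0.96 and 1.01. In forestomach 0 of 6 were called at any dose, with medians of -0.25, -0.21 and -0.35. Their part in the difference between tissues was not tested. The Trp53inp1 call at D2 rested on lung mouse 12, without which the adjusted p was 0.0606. Both its D2 and D3 calls were lost with each array centred on its median, the Feature Extraction log ratio or Cy5 alone. The D3 differences were then 0.91 ± 0.64 (SE), 1.04 ± 0.35 and 1.08 ± 0.25. For the last 2 the limma adjusted p was 0.534 and 0.0571. At D1 1 member was called in place of 0 without control forestomach mouse 1 or 4, and without mouse 1 it was Trp53inp1 (adjusted p = 0.0399).

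Ccng1 and Mdm2 stood at the edge of the call at D3. The difference was 1.61 ± 0.36 (SE, limma adjusted p = 0.0535) for Ccng1, 0.71 ± 0.16 (adjusted p = 0.054) for Mdm2 and 1.03 ± 0.28 (adjusted p = 0.187) for Zmat3. Mouse numbers link the tissues of 1 animal. With the mouse as a fixed replicate block, Ccng1, Mdm2 and Trp53inp1 were all called at D3 (limma adjusted p = 0.00288, 0.0428 and 0.0115). At D2 this fit called Ccng1 (0.00849) and Trp53inp1 (0.0159). It held only mice with both tissues, so lung mouse 20 was left out. Without that lung and with no block, Mdm2 was also called at D3 (0.78 ± 0.16, limma adjusted p = 0.0281). A random block, which kept all mice, called the same 3 genes at D3 (limma adjusted p = 0.0155, 0.0211 and 0.00147). Over all probes the fixed block gave 57 calls at D2 and 120 at D3, in place of 34 and 96. Leaving out 1 array at a time gave 1 to 3 members called at D3. Ccng1 was called without lung mouse 11, 13, 17 or 18 or forestomach mouse 2, 5, 11, 12, 15 or 19 (adjusted p from 0.0216 to 0.0495). Mdm2 was called without lung mouse 9, 10, 15, 18 or 20 or forestomach mouse 6, 11 or 19 (adjusted p from 0.0281 to 0.0493). Trp53, Mdm4, Ppm1d and Rchy1 had differences at D3 of 0.29, -0.13, -0.02 and 0.12, none called.

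Vehicle control mice allowed the tissues to be compared without DBahA. Of the 5 control forestomach arrays, those of mice 1, 3 and 4 carried glandular stomach RNA, and the part of this in the values was not tested. At D0, 3 of the 8 genes were called between lung and forestomach, where 16.2% of all probes were called. Of the 25571 probes kept by a filter on dim probes, 8827 were called. Trp53inp1 was 1.26 ± 0.15 (SE, 2.40-fold, limma adjusted p = 2.23e-08) higher in lung by its main probe, but its second probe gave 0.08 (adjusted p = 0.646) and was above background on 8 of 19 forestomach arrays. Mdm2 was 0.74 ± 0.11 (1.67-fold, adjusted p = 1.76e-06) higher in lung. Zmat3 was lower in lung by the same comparison, with a log2 difference of -0.85 ± 0.19 (adjusted p = 0.00064). With each array centred on its median in place of loess normalisation, neither Mdm2 nor Zmat3 was called. The differences were then 1.23 ± 0.48 for Mdm2 (limma adjusted p = 0.0974) and -0.17 ± 0.48 for Zmat3 (adjusted p = 0.847). In control mice the values of Zmat3 were -1.11 to -0.71 in lung and -0.51 to 0.42 in forestomach, and treated lungs at D3 (0.04 to 0.74) reached the forestomach range. Ccng1 (0.24), Ppm1d (0.26), Rchy1 (-0.20) and Trp53 (-0.40) were not called. Mdm4 passed the adjusted p (0.0185) with a 1.46-fold difference that fell short of the fold threshold.

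The members were then set beside other genes of the pathway. Of 32 p53 target genes that are no members, 6 were called higher in lung at D1, 10 at D2 and 12 at D3. None was called lower. Of all probes 0.14%, 0.264% and 0.639% were called at these doses. The list was chosen with earlier results of these data known. Its 32 genes had a median log2 fold change at D3 of 0.30. The largest called changes at D3 were those of Gdf15, a secreted stress cytokine (3.63 ± 0.21), Cdkn1a, the cell cycle inhibitor p21 (2.93 ± 0.17), and Phlda3, an inhibitor of Akt (2.04 ± 0.11). The smallest were those of Pmaip1 (0.59), Tnfrsf10b (0.61) and Polk (0.68), of which the first is a proapoptotic Bcl-2 protein, the next a death receptor and the last a translesion polymerase. In forestomach 0 of the 32 were called at any dose, and at D3 Cdkn1a was at -0.08 ± 0.11. The D3 response differed between the tissues for 6 of the 32, all larger in lung, where 0.172% of all probes were called.

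Other lists of genes around p53 gave no call in lung or forestomach at any dose. These were 12 kinases, 14 other ubiquitin ligases and deubiquitinases of p53 or Mdm2, 7 genes for Arf and the ribosomal proteins that bind Mdm2, and 14 members of the p53 family and its cofactors. Their median log2 fold changes in lung at D3 were 0.07, 0.05, -0.10 and -0.03. A ligase of p53, Trim24, named after its values were seen, passed the adjusted p in lung at D3 (0.0038) with a log2 fold change of 0.47 ± 0.08 that was below the fold threshold.

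The genes whose log2 ratio was most like that of a member were found over the 19 lung arrays, among 11629 genes above background on all of them. Part of each correlation comes from the dose groups, so the correlation of deviations from the group means is given too. Trp53inp1 was most like Cdkn1a (Pearson r = 0.974, within groups 0.659), Phlda3 (0.972 and 0.652) and Gdf15 (0.968 and 0.574). Ccng1 was most like Cdkn1a (0.966 and 0.754), Phlda3 (0.961 and 0.726) and Ccnd1 (0.961 and 0.861). Mdm2 was most like Thyn1 (0.967 and 0.874), Rps27l (0.947 and 0.763) and Dglucy (0.943 and 0.702), and Zmat3 was most like Tulp4 (0.974 and 0.899), Rnf169 (0.953 and 0.771) and Ces2c (0.953 and 0.767).

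The members that were not called had other neighbours. Trp53 was most like Slfn9 (0.945, within groups 0.945), Galnt7 (0.922 and 0.943) and Ehbp1 (0.917 and 0.920). Mdm4 was most like Acin1 (0.880 and 0.883), Nktr (0.879 and 0.885) and Dennd5b (0.870 and 0.849). Ppm1d was most like Rinl (0.906 and 0.848), Emc3 (0.885 and 0.791) and Slc30a1 (0.876 and 0.778). Rchy1 was most like Rtn1 (0.916 and 0.908), Ppfia4 (0.910 and 0.905) and Snrpn (0.896 and 0.901). Arrays of 1 slide share their hybridisation, and 0.57 to 0.91 of the variance of these 4 genes within dose groups in lung went with slides. Between members, the within-group correlation over the 19 lung arrays was 0.63 for Ccng1 and Trp53inp1, 0.59 for Ccng1 and Zmat3, and 0.56 for Mdm2 and Zmat3. The highest of all pairs was 0.64 for Ppm1d and Rchy1, and the lowest were those of Trp53 with Zmat3 (-0.72), Ppm1d (-0.66) and Rchy1 (-0.59). These correlations describe the arrays and were not tested.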

How the data were processed

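Total RNA of 38 samples was hybridised to dual-colour Agilent arrays with 62976 spots, with no dye swap. The deposited scanner files, made by the authors with Feature Extraction 10.7.3.1, hold the median intensity of each spot without background correction. They also hold a log10 ratio of the channels, which the authors' Feature Extraction run made after its own background and dye corrections before the files were deposited. The deposited values of the authors were read as log2 of Cy5 over Cy3, since their columns had slopes of 0.99 to 0.9978 against the values computed here; the scale is otherwise unstated. Following the study's methods, median intensities without background correction were normalised by loess within each array. Control spots (weight 0) and flagged outliers were left out (372 values emptied), and spots of 1 probe were averaged. No spot was saturated. Symbols came from RefSeq by transcript accession and were found for 26413 probes.

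Each tissue was fitted in limma 3.58.1 (R 4.3.3) with 1 mean per dose group, and the lung minus forestomach contrasts in 1 fit over both tissues. The study's methods name MAANOVA, which limma replaced here. The labels number 2 forestomach arrays of D3 as mouse 18, and these were averaged to 1 replicate before fitting. No forestomach array here is labelled mouse 20. The first array of mouse 18 lay on slide 4 with the lung of that mouse and the second on slide 5 with the lung of mouse 20, so whether both came from 1 animal is uncertain, and D3 may hold 5 forestomach mice in place of 4. The number of arrays limits the precision, and the share of probes well above background in Cy5 ran from 30.1% to 63.8% over the arrays. The lung and forestomach of a mouse number are from the same animal per the labels and shared a slide, except the second forestomach array of mouse 18. Their deviations from the group means correlated at 0.08 to 0.25 over 18 mice (median 0.18). The named genes are the 8 members, the reference points Cdkn1a and Gdf15, at most the 3 largest and 3 smallest called changes of a list, and the 3 genes most like each member. The members, lists and marker genes were chosen with earlier results of these data known. The lung fit was tested on simulated data in which some probes changed at D3 by a doubling or more. That test held no smaller change, no slide effect, no forestomach and no difference between tissues. Alternatives covered the normalisation, background, dim probes, variance model, slide, scan date, each mouse left out, mouse 18, marker scores as covariates, the mouse as a block and the probe of a gene.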

Additional observations from a re-analysis of the deposited data

Results flagged for a closer look

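Of 64 groups of 4 or 5 mice examined, 1 held a mouse far from the others, where chance alone gives about 1 in 20. In forestomach at D0, Ccng1 of mouse 1 was -0.01 on the log2 scale and the next control mouse was at -1.08, a gap of 0.843 of the group's range. The lung of the same mouse was at -0.44, the highest of the control lungs.

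The response of Trp53inp1 differed between the tissues by the test of the difference itself, by 1.24 at D2 and 1.23 at D3, larger in lung. Neither difference was called with median centring, the Feature Extraction log ratio or Cy5 alone.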

How the results depend on the processing

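Over all alternatives 0 results changed direction after being called, and the limits lie in the counts of member genes called. With median centring in place of loess the lung counts were 0, 0 and 1 at D1, D2 and D3 (Ccng1, 2.27, limma adjusted p = 0.0482). Of all probes 0, 5 and 16 were then called, in place of 78, 147 and 356. The median SE over all probes was 0.15 or 0.16 in place of 0.10. At D3 the log2 fold change of Mdm2 was 1.25 ± 0.42 (SE) in place of 0.83 ± 0.11. That of Trp53inp1 was 1.64 ± 0.37 in place of 1.31 ± 0.11. With the proliferating cell score as a covariate, added after the data were seen, the lung counts were 0, 1 and 1. Of all probes 8, 19 and 89 were then called. The count of members whose response differed between the tissues moved more, with the cause not tested. At D1 it was 1 in place of 0 with slide as a fixed or random block, with scan date as a block and with the mouse number as a random replicate block. These blocks gave 42 to 48 calls over all probes at D1, in place of 18. At D2 the member count was 0 with median centring, the Feature Extraction log ratio or Cy5 alone, and 2 with the mouse number as a fixed or random replicate block. In that order 2, 60, 42, 57 and 68 of all probes were called at D2, in place of 34. At D3 the member count was 0 with median centring, the Feature Extraction log ratio or Cy5 alone. Over all probes these called 2, 120 and 113 at D3, in place of 96. The member count was 2 with eBayes trend and robust settings, slide as a fixed block, and either or both arrays of mouse 18 taken alone or apart. Calls over all probes were 75 for the eBayes settings, 204 for the slide block and 88 to 111 for those on mouse 18. The member count was 3 with the authors' table, the filter on dim probes, slide as a random block, or either replicate block, and 4 with scan date as a block. Calls over all probes were 105 for the authors' table, 121 for the filter, which kept 25571 probes, and 148 for the slide block. They were 120 and 139 for the fixed and random replicate blocks and 198 for scan date. The replicate block, which changed no call between tissues at D0, uses pairing from the labels, and 15 of 18 mice had a correlation above 0.1, while 5 of 18 lungs correlated best with the forestomach of their own mouse.

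With each mouse left out in turn, the lung counts ran from 2 to 3 (D1), from 4 to 4 (D2 and D3) and from 0 to 0 (D3 against D1). In forestomach each dose comparison gave 0 to 0. The counts of differences between tissues ran from 0 to 1 for D1, from 0 to 2 for D2 and from 1 to 3 for D3, and those of the tissues compared without DBahA from 3 to 4. Of the 80 results of members that were not called, 6 were called under some alternative, and none of these 6 was a dose comparison within a tissue. Within-slide values carry no test, and dim probes such as the second probe of Mdm4 and the probe of Trp53 are limited by signal over background.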
